A study of Rattus norvegicus with 10 samples.

Results

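Genes of glycogen synthesis and breakdown were followed in whole retinas of 3-day-old rats. The 9 genes were chosen by symbol: the glycogen phosphorylases Pygl, Pygb and Pygm, the phosphoglucomutase Pgm1, and Ugp2, Gyg1, Gys1, Gbe1 and Ppp1r3c of the synthesis side. Of these, 8 had a probe set that the platform annotation assigns to that symbol alone, among 14324 genes with such a probe set. Each of the 8 had 1 probe set, so taking the probe set with the highest mean over the 10 arrays left out none. No singly assigned probe set was found for Ppp1r3c, and its expression was not analysed here.

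The study exposed litters of the strain F344, described in its design as resistant to oxygen-induced retinopathy, and the strain SD (Sprague Dawley), described as susceptible. From within 12 hours after birth until postnatal day 3, mothers and litters breathed 80% and 21% oxygen alternately, changing every 24 hours, while age-matched controls stayed in room air. Retinal RNA was pooled from 3 rats of 2 litters per array, giving 3 pools of F344 in hyperoxia, 2 of F344 in room air, 2 of SD in hyperoxia and 3 of SD in room air. According to the design text, principal components of the first 8 arrays led to 1 further pool each of F344 in hyperoxia and SD in room air; the pools numbered 3 are presumed to be these, from their numbers alone. A pool averages its rats, so differences between single animals cannot be seen.

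Glycogen is a branched polymer of glucose that cells hold as a quick fuel reserve, and in the retina it is stored mainly in Mueller glia. Glycogenin (Gyg1) primes a chain, UDP-glucose pyrophosphorylase (Ugp2) makes the glucose donor, glycogen synthase (Gys1, the muscle isoform, used outside the liver) extends the chain and the branching enzyme (Gbe1) adds branches. Phosphorylase cuts glucose 1-phosphate off the chain ends, and phosphoglucomutase (Pgm1) converts that product to and from glucose 6-phosphate, so it serves both directions. Several of these genes, among them Gys1, Gbe1 and Ppp1r3c, have been described in other cells as induced by low oxygen through hypoxia-inducible factors, which bind a short core motif in target promoters.

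Promoter windows from RefSeq (assembly GRCr8, 250 bases before to 50 after the annotated gene start) were matched for all 9 genes. They were searched on both strands for ACGTG and GCGTG, both forms of the hypoxia response core. Shown here are the windows of the 3 genes with the lowest SD values under hyperoxia relative to room air, at chr6:94476170-94476469 (minus strand) for Pygl, chr1:105051666-105051965 (plus strand) for Gys1 and chr11:22181026-22181325 (plus strand) for Gbe1. Each is written 5′ to 3′ along the gene, and capitals mark the matches, which read as CACGT or CACGC where the motif lies on the opposite strand.
Pygl: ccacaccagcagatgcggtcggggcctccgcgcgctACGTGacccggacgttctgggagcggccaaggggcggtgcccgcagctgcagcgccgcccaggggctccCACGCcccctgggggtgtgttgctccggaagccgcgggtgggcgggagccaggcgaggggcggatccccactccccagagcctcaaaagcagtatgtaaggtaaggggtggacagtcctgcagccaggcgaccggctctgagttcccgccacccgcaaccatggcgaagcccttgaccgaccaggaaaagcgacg
Gys1: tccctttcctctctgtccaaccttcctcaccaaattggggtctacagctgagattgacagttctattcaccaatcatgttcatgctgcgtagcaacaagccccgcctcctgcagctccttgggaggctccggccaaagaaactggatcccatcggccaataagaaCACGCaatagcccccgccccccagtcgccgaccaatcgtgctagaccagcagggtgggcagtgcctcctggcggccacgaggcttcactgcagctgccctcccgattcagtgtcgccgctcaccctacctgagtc
Gbe1: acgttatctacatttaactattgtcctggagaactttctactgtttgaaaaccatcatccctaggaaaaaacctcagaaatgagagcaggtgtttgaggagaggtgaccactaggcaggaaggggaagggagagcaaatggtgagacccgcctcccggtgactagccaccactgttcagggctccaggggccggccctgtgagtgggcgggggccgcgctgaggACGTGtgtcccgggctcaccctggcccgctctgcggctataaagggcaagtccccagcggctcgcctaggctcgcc

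All 9 windows held at least 1 match, against 41.6% of the 33469 rat promoter windows in the table. Pygl had 1 match to ACGTG at -214 and 1 to GCGTG on the opposite strand at -145 (first base, counted from the gene start), Gys1 had 1 to GCGTG on the opposite strand at -85, and Gbe1 had 1 to ACGTG at -26. Ppp1r3c, which encodes a subunit that brings protein phosphatase 1 to glycogen, held 8 matches, and 19.2% of all windows held 2 or more. In Ppp1r3c and Gyg1 a pair of these matches overlap in a palindrome and were counted on both strands. The windows are rich in G and C, 56.3% to 72.3% against a median of 51.7% over all windows, and both motifs consist mostly of these letters. Pygb and Pygm held matches too. A match is a description of the letters and not evidence of binding.

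**Figure D1:**
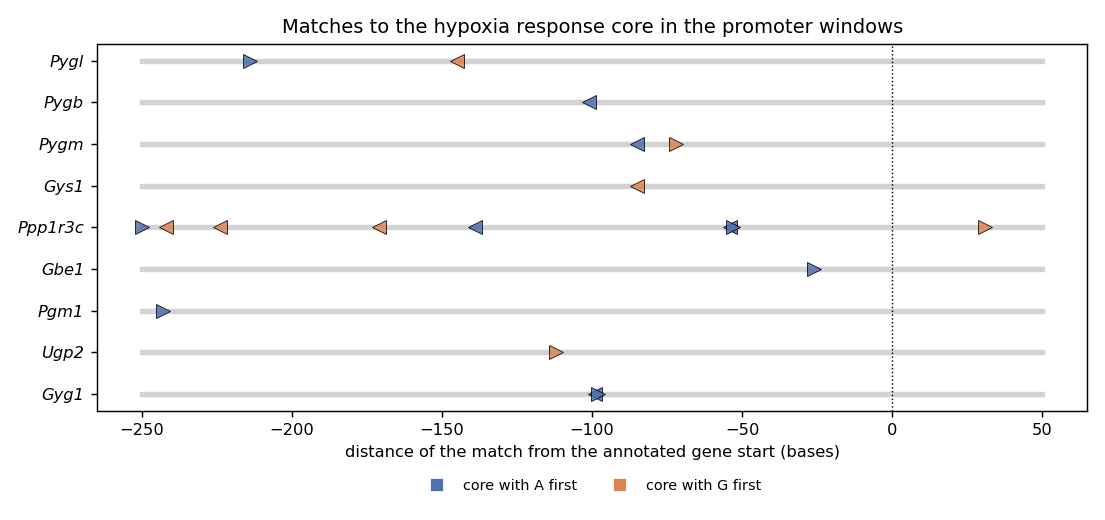
Positions of matches to the hypoxia response core in the promoter windows of the 9 genes. The x axis is the distance in bases from the annotated gene start (dotted line), colours separate both forms of the core, and arrowheads pointing right or left mark matches on the strand of the gene or the opposite strand; Ppp1r3c carries 8 matches and each of the others 1 or 2.

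The deposited values are log2 expression levels to 1 decimal. Differences below are therefore log2 differences with their standard error (SE). Adjusted p-values are from limma, corrected by Benjamini-Hochberg across the 27342 probe sets. Genes are not ranked by level, because the probe sets of different genes respond differently to the same amount of RNA. The array medians, between 5.9 and 6.0, are given beside a few levels as a rough guide only.

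The liver-type phosphorylase Pygl showed the largest spread of the 8 genes over the 4 groups. In SD its log2 level was 8.1, 8.2 and 7.8 in the 3 room-air pools and 7.2 and 7.3 in the 2 hyperoxia pools. In F344 it was 7.0 and 6.8 in room air and 6.2, 6.6 and 6.2 in hyperoxia. All 4 groups were thus separate, in the order SD room air, SD hyperoxia, F344 room air, F344 hyperoxia. The lowest SD hyperoxia pool lay above the highest F344 room-air pool, a neighbouring pair whose difference of 0.35 in means was not tested.

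**Figure D2:**
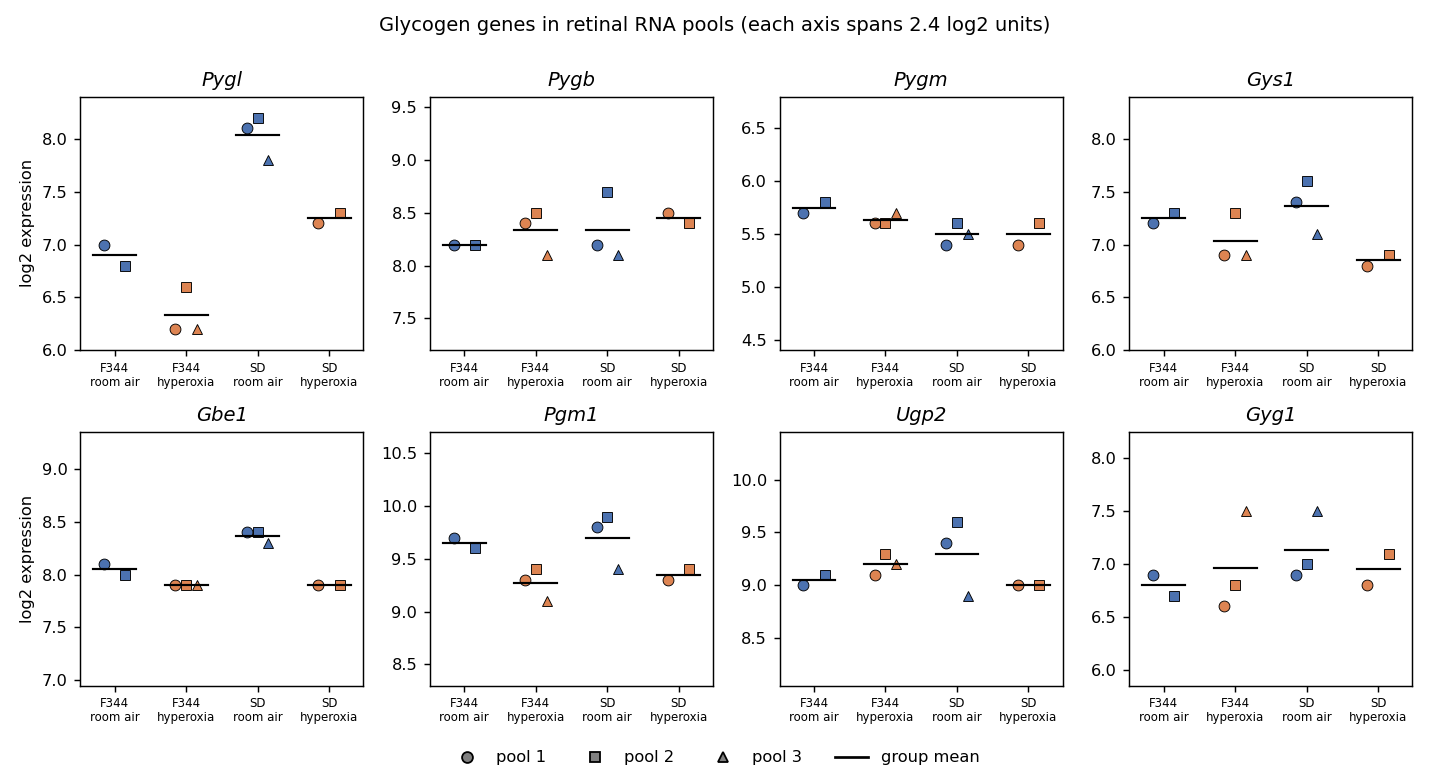
Log2 expression of the 8 measured glycogen genes in each RNA pool. Each panel is 1 gene, the x axis gives strain and exposure, circles, squares and triangles are pools 1, 2 and 3, and bars are group means; Pygl separates all 4 groups, from 6.2 in F344 hyperoxia to 8.2 in SD room air, while Gyg1 is highest, at 7.5, in both pools numbered 3.

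Pygl was higher in SD than in F344 under either exposure. In room air the difference was 1.13 (SE 0.153, 2.19-fold, adjusted p = 0.00429), with a mean of 8.03 (standard deviation 0.21, n = 3) in SD and 6.90 (standard deviation 0.14, n = 2) in F344. In hyperoxia it was 0.92 (SE 0.153, 1.89-fold, adjusted p = 0.0187), with means of 7.25 (standard deviation 0.07, n = 2) and 6.33 (standard deviation 0.23, n = 3). Every SD pool lay above every F344 pool of the same exposure, and 10.8% and 8.04% of all genes did so in room air and in hyperoxia. Of the 8 genes Pygl alone passed in either strain comparison; over all genes 0.377% were called higher in SD in room air and 0.237% in hyperoxia.

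The strain call in room air was lost without F344 room-air pool 1 (adjusted p = 0.0521) or pool 2 (adjusted p = 0.151). The call in hyperoxia was lost without F344 hyperoxia pool 1 (0.107) or pool 3 (0.0654), without SD hyperoxia pool 1 (0.252) or pool 2 (0.346) and without both pools numbered 3 (0.073). Fitted only to the groups compared, the adjusted p-values were 0.165 and 0.313. The differences in these fits were 1.03 to 1.23 in room air and 0.85 to 0.97 in hyperoxia. Where a group of 2 pools lost 1, the remaining pool was assumed to vary like the other groups. Whether the probes of Pygl cover sequence that differs between the strains was not analysed here. Marker lists for retinal and other cell types gave no separation of the strains in both exposures. Photoreceptor genes (5 of 7 listed) had list means of 9.14 to 9.46 in SD and 8.96 to 9.08 in F344 room-air pools. Erythroid genes (3 of 5 listed) had 5.77 to 5.90 in SD and 5.53 to 5.67 in F344 hyperoxia pools. Ganglion cell genes (6 of 7 listed) had 7.87 to 7.93 in SD and 8.02 to 8.33 in F344 hyperoxia pools. Their part in the strain difference was not tested.

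With hyperoxia, Pygl stood at -0.78 relative to room air in SD (SE 0.153, 1.72-fold lower, adjusted p = 0.220) and at -0.57 in F344 (SE 0.153, 1.48-fold lower, adjusted p = 0.921). Neither passed, although the pools of both exposures did not overlap in either strain. In SD it ranked 18 among 14324 genes by the size of the p-value. Averaged over both strains the difference was -0.68 (SE 0.108, adjusted p = 0.0711, rank 11), and 9 genes of all those tested, 0.0628%, were called lower there. The difference between both strain effects, SD minus F344, was -0.22 (SE 0.216, adjusted p = 0.779) and did not pass.

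The pools numbered 3 stood apart from the others over many genes, and a term for them changed the exposure result for Pygl. With that term Pygl fell by 0.88 in SD (SE 0.129, adjusted p = 0.0204), where 0.119% of all genes were called lower, and fell by 0.68 averaged over the strains (SE 0.0869, adjusted p = 0.00709), where 0.209% were. In F344 it was at -0.47 (adjusted p = 0.619) with the term. Leaving out both pools numbered 3 gave -0.90 in SD (adjusted p = 0.263) and -0.70 averaged (adjusted p = 0.148). When single arrays were left out, the averaged difference passed without F344 hyperoxia pool 2 (adjusted p = 0.0337) or SD room-air pool 3 (0.0297) and in no other of the 10 fits.

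The other phosphorylase isoforms did not separate by exposure. Pygb, the brain isoform, was at 8.2, 8.7 and 8.1 in SD room air, 8.5 and 8.4 in SD hyperoxia, 8.2 and 8.2 in F344 room air and 8.4, 8.5 and 8.1 in F344 hyperoxia. Its hyperoxia differences were 0.12 (SE 0.17) in SD and 0.13 (SE 0.17) in F344, both smaller than their errors. Pygm, the muscle isoform, was at 5.4, 5.6 and 5.5 in SD room air, 5.4 and 5.6 in SD hyperoxia, 5.7 and 5.8 in F344 room air and 5.6, 5.6 and 5.7 in F344 hyperoxia. Its hyperoxia differences were 0.00 in SD and -0.12 in F344 (SE 0.11 each). It lay below the array medians in every pool, and signal over background was not analysed here. SD room-air pools were all below F344 room-air pools for Pygm, as 9.93% of all genes were, with a difference of -0.25 (SE 0.11, adjusted p = 0.415). Skeletal muscle markers (8 of 9 listed) had list means of 5.14 to 5.34 over all pools, also below the array medians.

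On the synthesis side, the genes with the largest hyperoxia differences in SD were Gys1 and Gbe1. Gys1 was at 7.4, 7.6 and 7.1 in SD room air and 6.8 and 6.9 in SD hyperoxia, without overlap, and at 7.2 and 7.3 in F344 room air and 6.9, 7.3 and 6.9 in F344 hyperoxia, with overlap. The differences were -0.52 in SD (SE 0.159, adjusted p = 0.815) and -0.22 in F344 (SE 0.159, adjusted p = 0.921). Gbe1 was at 8.4, 8.4 and 8.3 in SD room air and 7.9 in both SD hyperoxia pools, and at 8.1 and 8.0 in F344 room air and 7.9 in all 3 F344 hyperoxia pools. Its exposures did not overlap in either strain, and all 5 hyperoxia pools had the same rounded level. The Gbe1 differences were -0.47 in SD (SE 0.0964, adjusted p = 0.287, rank 24) and -0.15 in F344 (SE 0.0964, adjusted p = 0.921).

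Gbe1 also stood higher in SD than in F344 room-air pools, by 0.32 (SE 0.0964, adjusted p = 0.236), while in hyperoxia the strain difference was 0.00 (SE 0.0964). This room-air comparison and the exposure comparison of SD share the SD room-air pools. The SD minus F344 difference of the hyperoxia effects was -0.32 for Gbe1 (SE 0.136, unadjusted p = 0.0383, adjusted p = 0.651), and no gene of the 14324 was called there by limma, with 1000 at an unadjusted p under 0.05.

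Pgm1, which links glycogen to glucose 6-phosphate in both directions, was at 9.8, 9.9 and 9.4 in SD room air, 9.3 and 9.4 in SD hyperoxia, 9.7 and 9.6 in F344 room air and 9.3, 9.4 and 9.1 in F344 hyperoxia. The exposures were separate in F344 and touched at 9.4 in SD, where room-air pool 3 was the lowest of its group. The differences were -0.35 in SD (SE 0.148, adjusted p = 0.815) and -0.38 in F344 (SE 0.148, adjusted p = 0.921), and the difference between them was 0.03 (SE 0.21).

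Ugp2 and Gyg1, which act at the start of synthesis, had overlapping levels in hyperoxia and room air in both strains. Ugp2 was at 9.4, 9.6 and 8.9 in SD room air, 9.0 and 9.0 in SD hyperoxia, 9.0 and 9.1 in F344 room air and 9.1, 9.3 and 9.2 in F344 hyperoxia. SD room-air pool 3 lay below both SD hyperoxia pools and the other two above them. The Ugp2 differences were -0.30 in SD (SE 0.167) and 0.15 in F344 (SE 0.167), and the difference between them was -0.45 (SE 0.237, adjusted p = 0.662). In hyperoxia, SD pools were all below F344 pools for Ugp2, as 7.34% of all genes were. That strain difference was -0.20 (SE 0.167, limma adjusted p = 0.898). Gyg1 was at 6.9, 7.0 and 7.5 in SD room air, 6.8 and 7.1 in SD hyperoxia, 6.9 and 6.7 in F344 room air and 6.6, 6.8 and 7.5 in F344 hyperoxia. Both pools numbered 3 were the highest of all 10 for Gyg1, and its exposure differences, -0.18 in SD and 0.17 in F344 (SE 0.24 each), came to 0.04 and -0.06 with the term for these pools.

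By that term, Gyg1 rose in the pools numbered 3, by 0.67 (SE 0.115, 1.60-fold, adjusted p = 0.00221), and Pgm1 fell by 0.35 (SE 0.0933, adjusted p = 0.0238). Over all genes 7.39% were higher and 8.73% lower there. Pygb stood at -0.35 (adjusted p = 0.0710), Gys1 and Ugp2 at -0.30 each, Pygl at -0.28, Gbe1 at -0.05 and Pygm at 0.05. In the same pools 4 of 6 measured cell cycle markers (7 listed) and 4 of 7 measured progenitor and Mueller glia markers (9 listed) were lower, with list medians of -0.56 and -0.38. Higher were 2 of 6 ganglion cell, 2 of 4 pigment epithelium and 2 of 6 microglial markers, with list medians of 0.27, 0.39 and 0.00. Of the amacrine and horizontal cell markers 2 of 7 were lower (median 0.05), and each remaining list had at most 1 called. Their part in the glycogen gene values was not tested.

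**Figure D3:**
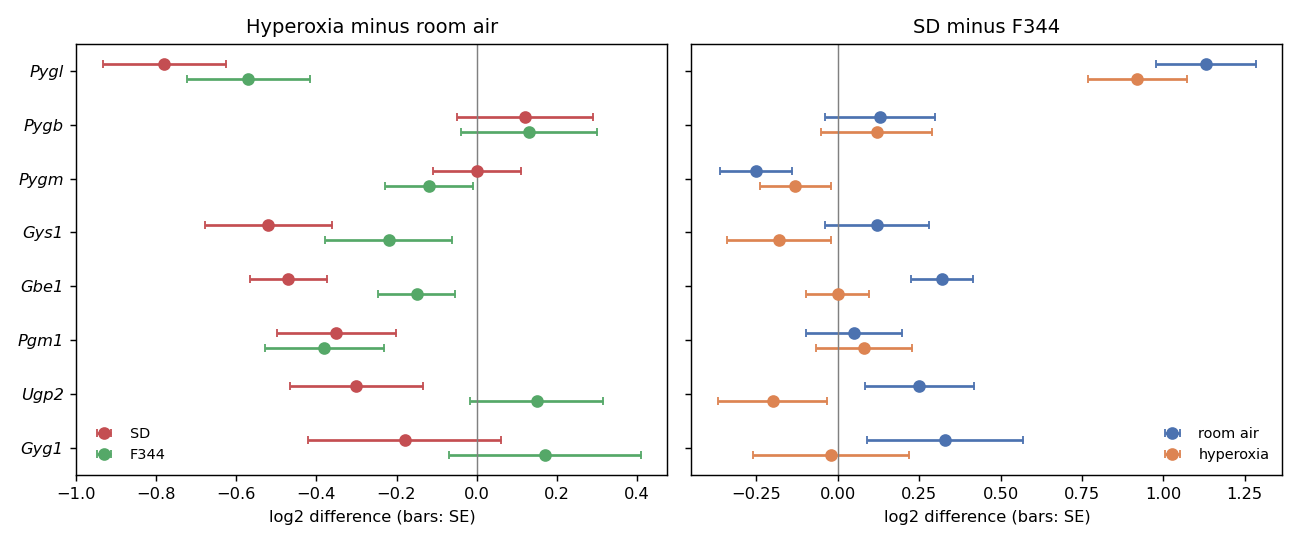
Fitted log2 differences of the 8 measured genes with standard errors. The left panel gives hyperoxia minus room air in SD and F344, and the right panel gives the strain difference, SD minus F344, for each exposure; Pygl lies lowest on the left, at -0.78 and -0.57, and highest on the right, at 1.13 and 0.92.

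Over the 8 measured genes, none passed for hyperoxia in SD or in F344 by limma on all 10 arrays. In SD, where 0.0489% of all genes were called lower, 4 of the 8 (Pygl, Gbe1, Gys1 and Pgm1) had an unadjusted p under 0.05, against 4.68% of all genes. In F344, where 0.00698% were called lower, 2 did (Pygl and Pgm1), against 4.91%. With the term for the pools numbered 3, 5 of the 8 did in SD, against 5.55% of all genes, and 2 in F344, against 6.79%. By limma with that term, Gys1 (-0.62, adjusted p = 0.168), Pgm1 (-0.47, 0.208) and Ugp2 (-0.40, 0.596) did not pass in SD. The exposures did not overlap and hyperoxia was lower for 3 of 8 genes in SD (Pygl, Gys1 and Gbe1) and for 3 of 8 in F344 (Pygl, Gbe1 and Pgm1), as for 7.34% and 6.32% of all genes. Both strains showed this for Pygl and Gbe1, 2 of the 8 genes, and for 0.545% of all genes. For Gbe1 in F344 the gap lay between 7.9 and 8.0, the smallest step that values with 1 decimal can show. The median difference of the 8 genes was -0.33 in SD and -0.13 in F344, with 0.00 over all genes in both. Averaged over both strains, Gys1 and Pgm1 stood at -0.37 each (SE 0.112 and 0.105, adjusted p = 0.936 and 0.804) and Gbe1 at -0.31 (SE 0.0682, adjusted p = 0.368). These counts and values describe genes listed with earlier results in view.

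Whole retina was measured, so fewer cells of a type and less RNA per cell cannot be told apart. List means of several marker sets were also lower in hyperoxia than in room air without overlap in both strains. For endothelial markers (5 of 7 listed) they were 4.92 to 5.08 against 5.20 to 5.54 in SD and 4.94 to 5.08 against 5.12 to 5.44 in F344. For pericyte markers (all 5 listed) they were 5.18 to 5.28 against 5.44 to 5.74 in SD and 5.28 to 5.32 against 5.62 in F344. For astrocyte markers (6 of 7 listed) they were 5.87 to 5.90 against 5.97 to 6.03 in SD and 5.83 to 5.90 against 5.97 to 6.03 in F344. Every endothelial and pericyte list mean lay below the array medians, and signal over background was not analysed here. Gene medians in SD and F344 were -0.35 and -0.37 for endothelial, -0.27 and -0.28 for pericyte and -0.09 and -0.04 for astrocyte markers. Rounding to 1 decimal limits differences as small as those of the astrocyte list. No gene of these lists passed in either strain, and their part in the values of Pygl, Gys1, Gbe1 and Pgm1 was not tested. Ganglion cell markers (6 of 7 listed) had medians of -0.28 in SD and 0.09 in F344, amacrine and horizontal cell markers (all 7) 0.12 and -0.12, and microglial markers (all 6) -0.10 and -0.01. Pigment epithelium markers (4 of 6) had medians of 0.20 and 0.45 and lens markers (5 of 6) -0.18 and -0.02, and no gene of these lists passed either. Photoreceptor markers had medians of -0.03 and 0.28 and cell cycle markers (6 of 7 listed) 0.29 and -0.06. Among these lists, the exposures did not overlap in SD for ganglion cells (lower in hyperoxia) and for amacrine and horizontal cells (higher), and in F344 for photoreceptors (9.14 to 9.44 against 8.96 to 9.08) and pigment epithelium (higher). Progenitor and Mueller glia markers, of the cells that store retinal glycogen, had overlapping list means in both strains, 9.80 to 9.84 against 9.64 to 9.96 in SD and 9.49 to 9.81 against 9.69 to 9.77 in F344. These list means lay above the array medians in every pool.

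**Figure D4:**
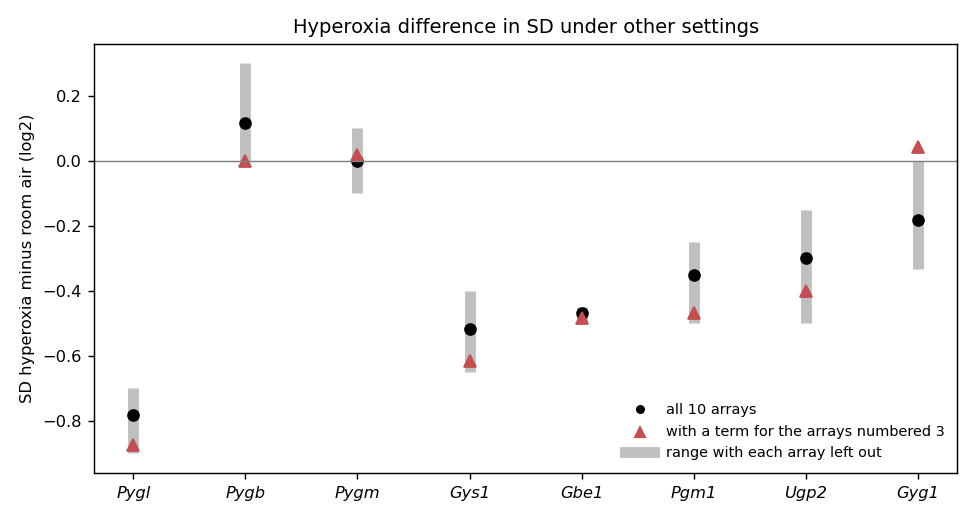
Hyperoxia minus room air in SD for each measured gene under other settings. Points are the fit to all 10 arrays, triangles the fit with a term for the arrays numbered 3, and grey bars the range over fits that leave out 1 array each; Pygl stays between -0.90 and -0.70 and Gbe1 between -0.50 and -0.45, while Gyg1 changes sign with the term.

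The rest of the pathway was examined through a list of 29 further genes. Of these, 23 had a singly assigned probe set, and 0 passed in either direction in SD or F344 by limma, with 0 at an unadjusted p under 0.05 in either strain. Their median differences were 0.05 in SD and -0.05 in F344. Of the 23, Phkg1, Ppp1r3a, Ppp1r3b, Ppp1r3e, Gys2, Epm2a, Nhlrc1, Stbd1 and G6pc1 lay below the array medians in every pool. Signal over background was not analysed for them. Among kinases that activate phosphorylase (4 of 5 measured), values in SD ran from -0.18 to 0.23, with Phka1, a regulatory subunit, at 0.23 (SE 0.129). Among protein phosphatase 1 subunits (7 of 9 measured), the glycogen-targeting subunits Ppp1r3a and Ppp1r3d stood at 0.22 and -0.20.

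Of the liver synthase and the synthase kinases (3 measured), Gsk3b, a kinase that inactivates glycogen synthase, was at 0.10 and Gys2, the liver synthase, at -0.02. Stbd1, which tethers glycogen to membranes, was at -0.18 and Epm2a, the glycogen phosphatase laforin, at 0.05. Pgm3, which acts on an amino sugar phosphate, had the highest value at 0.35 (SE 0.198), and Pgm2l1, which makes glucose 1,6-bisphosphate, was at 0.13. On the release side, the glucose-6-phosphatase G6pc3 was at 0.22 and the glucose 6-phosphate transporter Slc37a4 at -0.18. In the strain comparisons 0 of the 23 passed in either exposure, with 4 at an unadjusted p under 0.05 in room air (11.4% of all genes were) and 1 in hyperoxia (6.71% of all genes). By the term for the pools numbered 3, 3 of the 23 were lower, where 8.73% of all genes were.

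**Figure D5:**
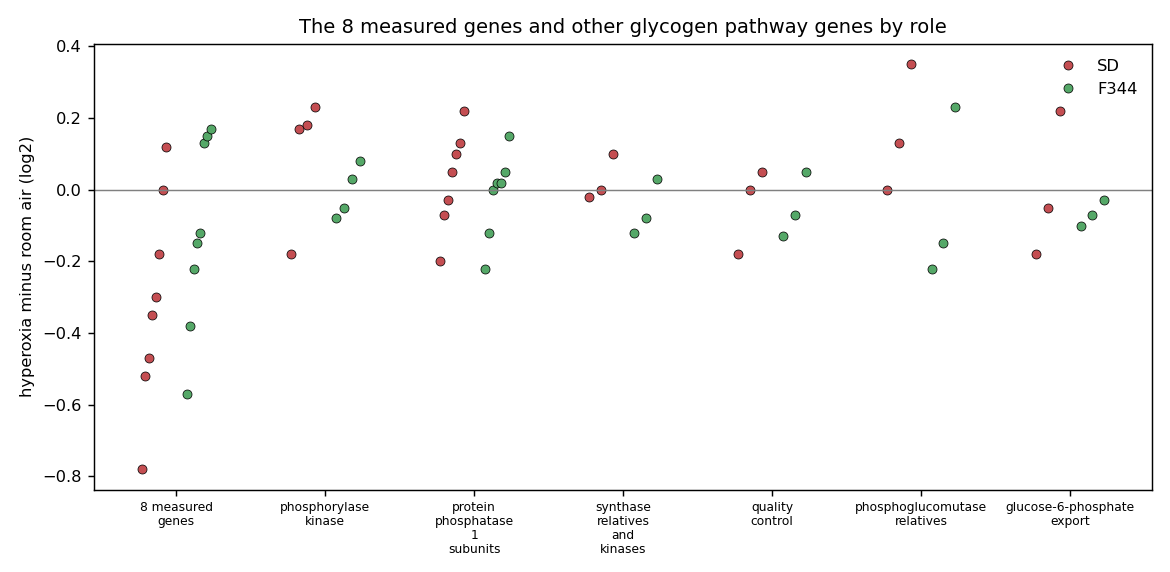
Log2 differences of hyperoxia minus room air in SD and F344 for the 8 measured genes and 23 other glycogen pathway genes, grouped by role on the x axis. Each point is 1 gene. The other genes lie between -0.20 and 0.35 in SD and between -0.22 and 0.23 in F344, while the 8 genes reach down to -0.78 and -0.57. Several of the other genes lie below the array medians in every pool.

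The genes whose levels most resembled each member over the 10 arrays were ranked by Pearson correlation among all 14324 genes, as a description, since the arrays share strains, exposures and the pools numbered 3. Gys1 was nearest to P4ha2 (r = 0.978), followed by Hk2 and Pfkl (0.921 each). Gbe1 was nearest to Hmox1 (0.977), Mif (0.944) and Snapc2 (0.911), and Pgm1 to Actn1 (0.959), Pkm (0.957) and Snx18 (0.936). Pygl, with its strain difference, was nearest to Ush1c (0.967), Cyp1b1 (0.961) and Sctr (0.960). Gyg1 was nearest to Desi1 (0.980), Cd164 (0.968) and Ccdc34 (0.960). No gene was among the nearest 3 of more than 1 member.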

How the data were processed

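Retinal RNA pools were labelled with the Affymetrix whole-transcript sense assay, per the labels' protocols, 1 pool per array. The authors deposited log2 expression values per probe set to 1 decimal; per the submitters' processing notes the tools were RMA and Partek 6.4, whose roles, together with the scaling and the annotation, were not given in the sources used here. Of 27342 probe sets, 15097 had 1 gene symbol, 323 several and 11922 none there; current symbols came from the RefSeq table of GRCr8. Values ran from 3.1 to 14.0. The small number of arrays limits the precision.

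Group means were fitted over the 10 arrays together with limma 3.58.1 (R 4.3.3, 6 residual degrees of freedom, eBayes, two-sided, threshold 0.05). The procedure was tested on simulated data whose planted changes were larger than the exposure differences reported here. Those data held no shift shared by the pools numbered 3, so the test does not cover it. Contrasts were hyperoxia minus room air in each strain, their difference and average, and SD minus F344 in each exposure. P-values set a difference against the spread between pools of a group, moderated over all probe sets by eBayes. Whether pools of a group share litters was not analysed here. The members and gene lists were chosen with earlier results of these data known. Named are all members, other pathway genes that passed or had up to 2 of the largest SD differences of their role (1 for the phosphorylase kinases, where values tied), the 3 nearest genes of each member by correlation (those of 5 members are given, and those of Pygb, Pygm and Ugp2 are left out), and promoters of the 3 members lowest in SD. Lists of lens, pigment epithelium, microglia, ganglion, amacrine and horizontal cell markers were also examined. Alternatives were eBayes with trend and robust settings, repeated quantile normalization, median centring, the brighter part of the probe sets, 1 probe set or the average over probe sets per gene, a term for the arrays numbered 3, leaving these out, array weights, a block for the replicate number, only the groups compared and leaving out each array.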

Additional observations from a re-analysis of the deposited data

How the results depend on the processing

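In the fit to all 10 arrays, 0 of the 8 genes passed in SD, in F344, for the difference of both effects and for their average, and 1 (Pygl) in each strain comparison. In SD, 1 (Pygl) passed with the added-array term, with array weights and with the replicate block. Averaged over the strains, 1 (Pygl) passed with the added-array term, array weights and the replicate block. There 0 to 1 passed when single arrays were left out. Pygl also passed there with 1 probe set per gene and with probe sets averaged per gene. Both settings left its difference at -0.675, because Pygl has 1 probe set. Fewer rows entered the fit and the correction, and the limma adjusted p-value went from 0.0711 to 0.0315 and 0.0312. In room air and in hyperoxia, the strain comparisons gave 0 with only the groups compared and 0 to 1 when single arrays were left out, and in hyperoxia 0 without both arrays numbered 3. The median of the 8 genes ranged from -0.50 to -0.25 in SD and from -0.15 to -0.12 in F344. Over all genes, the calls ranged from 0 to 19 in SD (7 in the fit to all arrays), 0 to 2 in F344 (1), 1 to 30 averaged (9), 10 to 216 for strain in room air (79) and 12 to 157 in hyperoxia (68). Of 986 refitted gene values, no called value changed sign and 39 uncalled ones did, 21 of them of Gyg1. All called values were of Pygl. Several settings cannot change a difference of these genes, so they do not test its sign. These were the trend and robust eBayes, the brighter probe sets, both settings per gene and only the groups compared. Leaving out a pool of a group outside the comparison was another. Deviations of same-numbered pools from their group means correlated over 0.1 in 4 of 13 pairs (-0.0733 to 0.643). These were the 3 pairs of F344 hyperoxia with SD room air (0.314, 0.397 and, for the pair numbered 3, 0.643) and pool 2 of F344 in both exposures (0.108). Between F344 hyperoxia and SD room air, pools 1 and 2 paired across numbers were also positive, at 0.142 and 0.233. Pairs of a pool 3 with a pool 1 or 2 of these groups were at -0.485 to -0.345. The pairs of SD hyperoxia with SD room air were at -0.056 and -0.0225, so the numbers were not taken to pair the exposures.

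Rounding to 1 decimal limits differences of about 0.1, as for Pygm and for the gap of Gbe1 in F344, and background at the probe level was not analysed here.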
